A study of Saccharomyces cerevisiae with 8 samples.

Results

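Start peaks of 50 yeast ribosome biogenesis genes were measured by CAGE-seq, which captures the capped 5′ ends of RNA and maps where transcription starts. The genes were taken as a list of symbols, all 50 of which matched the R64 annotation of Saccharomyces cerevisiae, out of 6002 nuclear protein-coding genes. A start peak was a peak on the strand of the gene whose 5′ end lay between 300 bp upstream and 50 bp downstream of the start codon. Of the 50 genes, 12 had a start peak in all 8 libraries, 24 in 1 to 7 libraries and 14 in none.

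The 8 libraries came from derivatives of BY4741, a laboratory strain, that carried a synthetic locus made of the human HPRT1 region (HPRT1) or of the same sequence reversed without complementing it (HPRT1R). HPRT1 episome and HPRT1R episome strains held the locus on a vector with the LEU2 marker and grew in SC-Leu, a defined medium lacking leucine. HPRT1 integrated and HPRT1R integrated strains held it on chromosome XI, placed there by Cre recombination at a landing pad, and grew in YPD, a rich medium. Each of the 4 groups had 2 replicates, and all cultures were harvested in mid-log phase. Medium and the state of the locus changed together, so they cannot be told apart in any SC-Leu against YPD comparison. Values per library are listed for SC-Leu as HPRT1 episome replicates 1 and 2 and then HPRT1R episome replicates 1 and 2, and for YPD in the same order of the integrated strains. As solved from the peak statistics, libraries held 6.48 to 8.85 M aligned reads (M, 1000000 reads). Heights are in RPM, reads at the summit per 1000000 aligned reads. The lowest peak called in a library had 8.48 to 9.65 RPM on forward strands, against 13.8 to 14.6 RPM on reverse strands. The limit is higher where the local background is higher. A gene without a start peak had no peak called in its window, which does not make it silent. LEU2, which the episome vector carries, had a start peak in 4 of 4 SC-Leu and 0 of 4 YPD libraries.

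Ribosome biogenesis begins in the nucleolus, where RNA polymerase I transcribes the long ribosomal RNA precursor. Box C/D snoRNPs methylate the precursor and box H/ACA snoRNPs convert uridine to pseudouridine in it, while the small-subunit processome, built from UTP subcomplexes and U3 snoRNP, folds and cleaves it. RNA helicases and a further set of factors then shape the large-subunit precursor. In budding yeast the genes for these factors are known as a coordinately expressed group (the Ribi regulon) that follows growth rate and nutrients, and their promoters are known for 2 sequence elements named PAC and RRPE.

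The promoter sequence is given before the expression values because it does not depend on the libraries. Exact matches to the 6-letter PAC core GATGAG, or CTCATC on the other strand, were found in the 250 bases before the start codon of 46 of the 50 genes (92%), against 1022 of all 6002 genes (17.0%). The 8-letter RRPE core AAAATTTT, which is its own reverse complement, was found in 41 of the 50 (82%), against 519 of all genes (8.65%). Matches to the 2 cores share no base by construction of their letters. Both cores were present in 38 of the 50 genes (76%), against 245 of all genes (4.08%). UTP22, a small-subunit processome protein, was the only member with neither. A list of 107 other ribosome biogenesis genes had the PAC core in 95 (88.8%) and the RRPE core in 78 (72.9%), and 11 RNA polymerase I subunit and factor genes had them in 9 and 7.

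CAGE placed these cores upstream of the mapped start wherever a start was mapped. The mapped start of a gene was taken as the median 5′ end of its start peaks, and was available for the 36 members with at least 1 peak. In these, 55 of 55 PAC matches and 36 of 36 RRPE matches lay upstream of the mapped start. For comparison, genes of none of the lists with a start peak in all 8 libraries had 191 of 213 PAC matches (89.7%) and 119 of 129 RRPE matches (92.2%) upstream. Taking the match nearest to the start in each gene, the PAC core ended a median of 54 bases before the mapped start (range 10 to 124.5, 35 genes) and the RRPE core a median of 81 bases before it (range 44 to 119.5, 29 genes). Among the 38 members with both cores, every RRPE match lay upstream of every PAC match in 29, the order was the other way round in 1, and the matches were interleaved in 8.

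**Figure D1:**
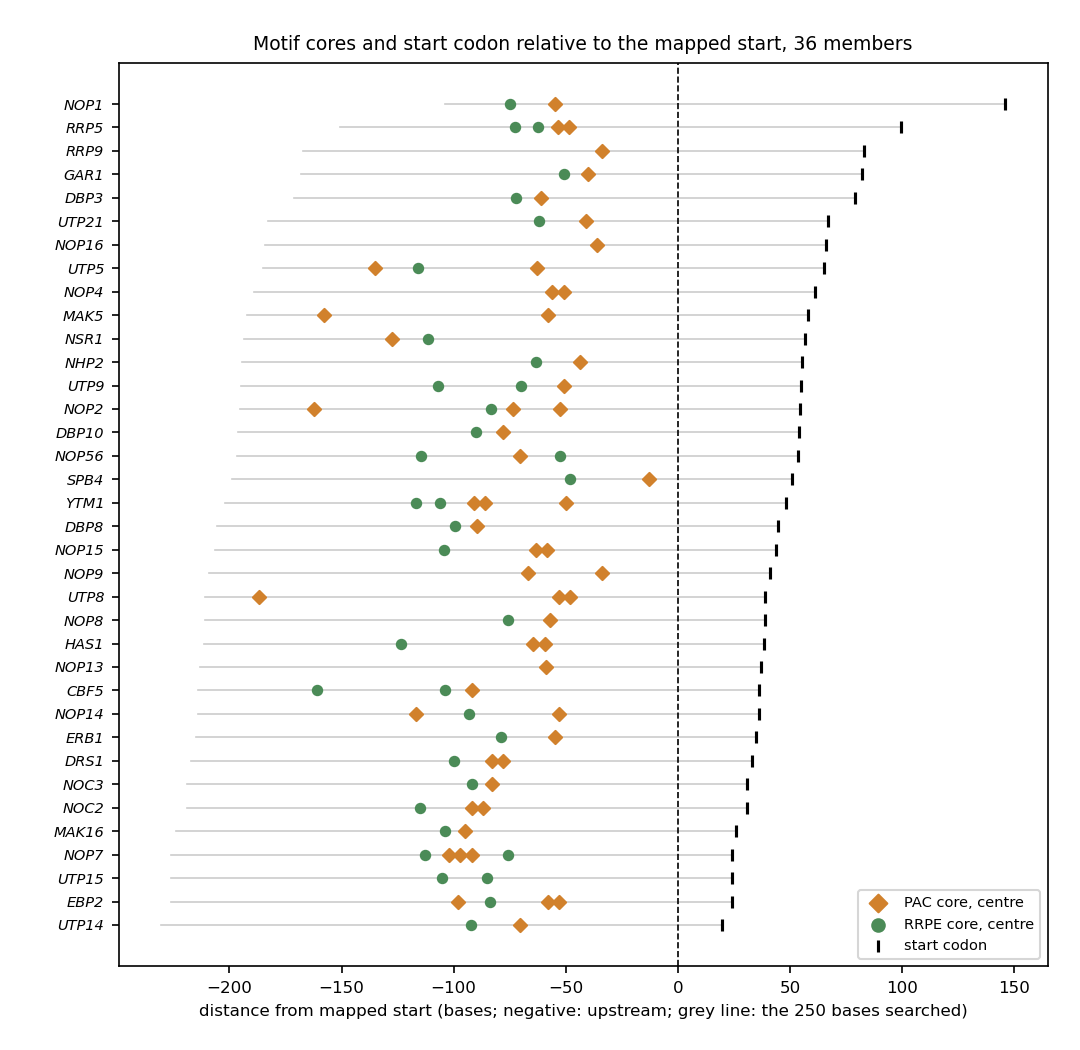
Positions of the PAC core (diamonds) and RRPE core (circles) relative to the mapped start (dashed line at 0) of the 36 members with a start peak, in bases, with the start codon as a black tick and the 250 bases searched as a grey line. All 55 PAC and all 36 RRPE matches lie left of the mapped start, and the RRPE core mostly lies farther from it than the PAC core.

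The following sequences are the 200 bases directly before the mapped start, read 5′ to 3′ in the direction of the gene, for the tallest member of each class that had one with a start peak in all 8 libraries. They were read from the R64 genome (RefSeq), and none overlaps an annotated coding sequence. Capitals mark exact matches to the PAC core on either strand or to the RRPE core. NOP14 is also the member with the largest difference between media.
NOP1 (chrIV:427018-427217, forward strand): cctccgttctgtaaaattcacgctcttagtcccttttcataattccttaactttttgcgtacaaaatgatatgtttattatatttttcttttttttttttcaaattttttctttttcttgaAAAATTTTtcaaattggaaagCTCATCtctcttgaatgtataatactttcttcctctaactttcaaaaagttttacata
NHP2 (chrIV:87257-87456, forward strand): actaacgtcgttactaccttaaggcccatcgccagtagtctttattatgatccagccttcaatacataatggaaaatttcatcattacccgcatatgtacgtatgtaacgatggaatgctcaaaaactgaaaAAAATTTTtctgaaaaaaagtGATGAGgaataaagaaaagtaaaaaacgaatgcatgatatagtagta
NOP14 (chrIV:190623-190822, reverse strand): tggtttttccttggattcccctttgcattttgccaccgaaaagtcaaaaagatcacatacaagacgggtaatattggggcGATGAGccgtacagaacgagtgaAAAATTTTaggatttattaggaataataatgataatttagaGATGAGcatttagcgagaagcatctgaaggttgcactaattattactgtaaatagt
DRS1 (chrXII:131496-131695, forward strand): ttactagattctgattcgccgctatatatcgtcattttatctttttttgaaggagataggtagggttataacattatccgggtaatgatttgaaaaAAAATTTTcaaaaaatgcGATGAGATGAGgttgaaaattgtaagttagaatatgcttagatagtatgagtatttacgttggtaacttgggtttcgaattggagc
NOP2 (chrXIV:510286-510485, forward strand): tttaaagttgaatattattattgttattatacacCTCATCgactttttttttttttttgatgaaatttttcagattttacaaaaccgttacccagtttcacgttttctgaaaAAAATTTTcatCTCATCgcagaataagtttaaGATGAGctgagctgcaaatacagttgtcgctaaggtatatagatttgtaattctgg
In NOP1 and NHP2, 13 bases separate the RRPE core from the PAC core that follows it, in DRS1 10 bases and in NOP2 3 bases. The RRPE core of NOP1 ends 71 bases before the mapped start and that of NHP2 60 bases before it. In DRS1 a pair of overlapping PAC cores ends 80 and 75 bases before the start. NOP14 has a PAC core on each side of its RRPE core, 114 and 50 bases before the start.

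Detection of the 50 genes was on average more frequent than for genes in general, and it varied by class. Start peaks were called for 25, 20, 26 and 24 members in SC-Leu libraries, against 25, 25, 29 and 27 members in YPD libraries. The mean share was 47.5% ± 5.26 in SC-Leu and 53% ± 3.83 in YPD (SD, n = 4 each), with ranges that overlapped. Over all genes the mean share was 39.1% ± 0.407 in SC-Leu and 40.2% ± 2.21 in YPD (SD, n = 4 each). The 12 members called in all 8 libraries were 24% of the list, where 19.8% of all genes were called in all 8. The 14 members called in none were 28%, where 36% of all genes were called in none. No member had a start peak in 4 of 4 SC-Leu and 0 of 4 YPD libraries, nor the reverse, and each of these patterns was seen in 0.1% of all genes. Members called in more YPD than SC-Leu libraries numbered 13, and 6 were called in more SC-Leu than YPD libraries, or 26% and 12% of the list, where 19% and 16.1% of all genes were.

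Among the snoRNP proteins, NOP1, GAR1 and NHP2 had a start peak in every library. NOP1 is fibrillarin, the methyltransferase of box C/D snoRNPs, and GAR1 and NHP2 are core proteins of box H/ACA snoRNPs. CBF5, the pseudouridine synthase of the H/ACA particle, was called in 1 SC-Leu library at 15.4 RPM and in 3 YPD libraries at 15.0, 49.5 and 72.5 RPM. NOP56, a core C/D protein, was called only in the 2 HPRT1R integrated libraries, at 22.7 and 15.2 RPM, and NOP58, its partner, in none. The genes of the C/D particle thus ranged, within YPD libraries, from no start peak in any (NOP58) to 805 RPM (NOP1).

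The UTP subcomplexes bind the nascent precursor early. Their UTP-A genes were called in 21 of 48 possible gene and library combinations, with UTP15 in 7 libraries, UTP8 in 6, and UTP5 and UTP9 in 4 each, while UTP4 and UTP10 were not called. The 3 UTP-B genes on the list were the least often detected class, called in 1 of 24 combinations. That call was UTP21 at 14.9 RPM in HPRT1R episome replicate 1, and UTP6 and UTP13 were not called. All 3 lie on the reverse strand, where the lowest peak called in a library had 13.8 to 14.6 RPM. Over all genes on that strand, 36.8% of combinations were called. Of 11 other small-subunit factors, NOP14 was called in all 8 libraries, UTP14, RRP9 and NSR1 in 6 each, RRP5 in 4 and NOP9 in 3. UTP7, UTP20, UTP22, NOC4 and RRP12 had no start peak.

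Helicases and large-subunit factors were called in 59.4% and 60.9% of their combinations, against 39.7% over all genes. The UTP-A genes and the other small-subunit factors had 43.8% and 37.5%, close to the share over all genes. DBP3 and DRS1 were detected in all 8 libraries, and HAS1 in 6, SPB4 in 5, DBP8 and MAK5 in 4 each and DBP10 in 3, all of them DEAD-box helicases, while DBP9 was not called. Of the 16 large-subunit factors, 6 were called throughout, namely NOP2, NOP4, NOP13, NOP16, NOC2 and EBP2. MAK16 was called in 7 libraries, NOP15 in 6, NOC3 and ERB1 in 5 each, NOP8 and YTM1 in 3 each and NOP7 in 1. ERB1, YTM1 and NOP7 form a complex, yet none of the 3 was called in all libraries. NOP12, SPB1 and BRX1 had no start peak.

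**Figure D2:**
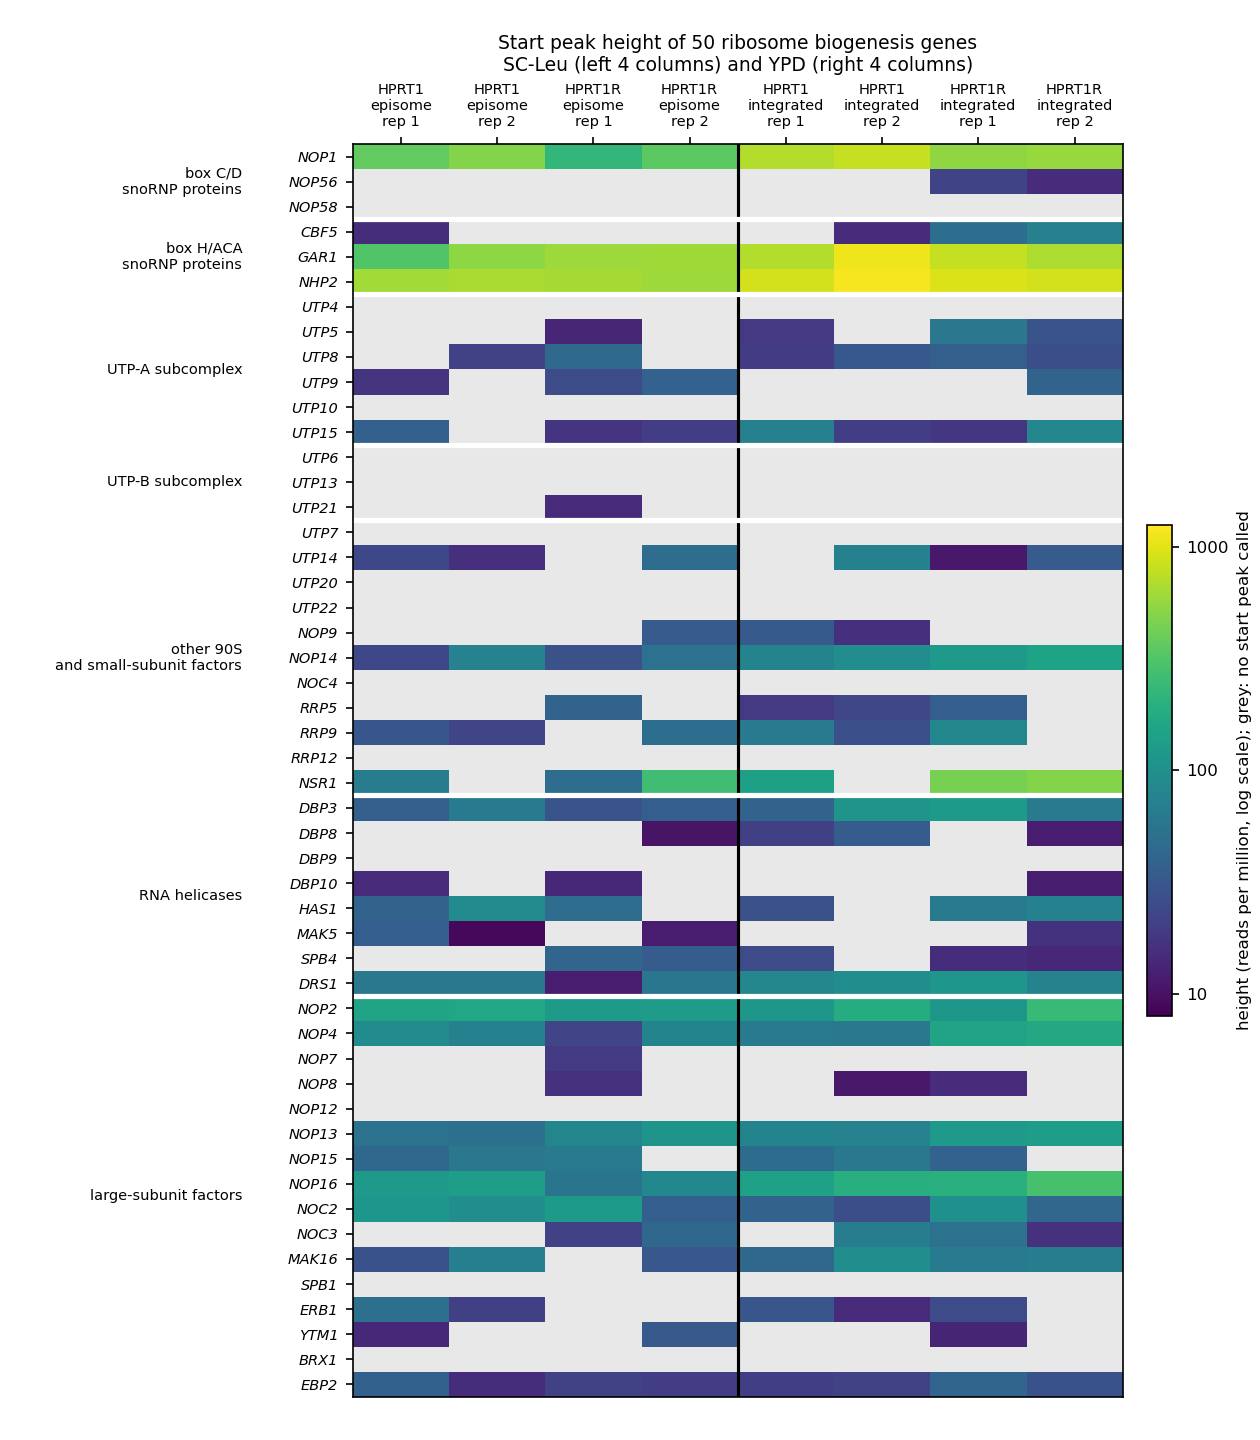
Start peak height (RPM, colour on a log scale) of all 50 members in rows, grouped by class, with the 4 SC-Leu libraries left of the black line and the 4 YPD libraries right of it, and grey where no start peak was called. NOP1, GAR1 and NHP2 stand above 200 RPM in every library, and the UTP-B rows are grey but for 1 cell.

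Most of these peaks were low. The median height over the 36 members with any peak was 33.1 RPM, against 37.5 RPM over the 3843 genes with any peak. For the members called in all 8 libraries it was 78.2 RPM, against 135 RPM for all 1190 such genes. A median height of 100 RPM or more was reached by 6 of the 36 members with any peak (16.7%), where 20.7% of all genes with any peak reached it. CAGE counts 1 end per RNA, so no correction of heights for length was made. Where a group had a call for a member, only 1 of its 2 replicates had it in 41 of 121 cases (33.9%), and the figure for all genes was 4197 of 11623 (36.1%). NSR1, the yeast nucleolin, was singled out after its values were seen, as the tallest member missing from some libraries. Its heights were 67.1, none, 48.2 and 266 RPM in SC-Leu, against 142, none, 449 and 488 RPM in YPD, so that in each HPRT1 group 1 replicate had a start peak and the other did not.

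Strand and coding length moved with detection. The 25 members on the forward strand were called in 57.5% of combinations and the 25 on the reverse strand, where the limit is higher, in 43.0%, and over all genes the shares were 42.5% and 36.8%. Members called in all 8 libraries had a median coding length of 1428 nt, those called in some 1773 nt and those called in none 2058 nt. Over all genes these medians were 949.5, 1332 and 1194 nt. The part of strand and length in the detection of members was not tested.

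The lists closest in function had shares near these. The 107 other ribosome biogenesis genes had 19 called in all 8 libraries (17.8%) and 29 in none (27.1%), and the 11 RNA polymerase I genes had 2 and 2. Mitochondrial ribosomal protein genes were called more often, with 29 of 67 in all 8 libraries (43.3%) and 9 in none (13.4%). Cytosolic ribosomal protein genes, of which many have an intron close to the start codon, had 41 of 138 called in all 8 libraries and 66 in none. Where called throughout, they reached a median of 1834 RPM, against 78.2 RPM for the ribosome biogenesis genes.

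Whether start peak height differed between SC-Leu and YPD was tested for the 12 members with a peak in all 8 libraries. NOP1 and NHP2 were lower in SC-Leu, no member was higher, and 10 did not pass. At an unadjusted p under 0.05 6 of the 12 tested members were lower and 0 higher, against 12.2% of all 1190 tested genes lower and 6.39% higher. The test was limma on log2 RPM over all 1190 genes with a start peak in all 8 libraries, with Benjamini-Hochberg adjustment over all of them and an adjusted p under 0.05 as the threshold. Over all these genes, 1.85% were called higher and 2.27% lower in SC-Leu (22 and 27 genes). Scaling each library by the median of these genes instead made that split 29 and 9, and left neither NOP1 nor NHP2 called. Of the 12 tested members, 11 had a negative difference in limma and kept that sign under both other scalings, against 59.7% of all tested genes. Their median difference was -0.73 on the log2 scale, against -0.13 over all tested genes, and -0.62 against -0.01 under the median scaling. RPM is a share of all capped RNA, so a lower share, fewer RNA molecules per cell and more RNA of other genes cannot be told apart. By the solved depths, reverse strands held a larger part of the reads in every SC-Leu library than in any YPD library. Scaled by the reads on the strand, the differences were -0.79 for NOP1 and -0.53 for NHP2, both forward, in place of -0.89 and -0.63. For GAR1, on the reverse strand, it was -0.75 in place of -0.69. Replicates were separate colonies of a strain according to the study's methods, and the p-values measure the spread between these cultures.

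NOP1 (chrIV 427364 to 428347, forward strand) had 372, 495, 229 and 350 RPM in SC-Leu libraries, against 698, 805, 540 and 581 RPM in YPD libraries. Every SC-Leu value lay under every YPD value. The mean was 362 ± 109 RPM in SC-Leu and 656 ± 120 RPM in YPD (SD, n = 4 each), a log2 difference of -0.89 (SE 0.20, limma adjusted p = 0.0259). Relative to the median of all tested genes the difference was -0.77. It was -0.81 between HPRT1 strains and -0.98 between HPRT1R strains. The call was lost when HPRT1 episome replicate 1 (adjusted p = 0.0915), HPRT1R episome replicate 1 (0.0599), HPRT1 integrated replicate 1 (0.0554) or 2 (0.0933), or HPRT1R integrated replicate 1 (0.116) or 2 (0.125) was left out, with differences between -0.74 and -0.95. Under the median scaling the limma adjusted p was 0.0553.

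NHP2 (chrIV 87512 to 87982, forward strand), the tallest of the 50, had 628, 656, 638 and 603 RPM in SC-Leu libraries, against 894, 1184, 966 and 894 RPM in YPD libraries. The SC-Leu values lay close together and all under the YPD values. The mean was 631 ± 22.2 RPM in SC-Leu and 984 ± 137 RPM in YPD (SD, n = 4 each), a log2 difference of -0.63 (SE 0.16, limma adjusted p = 0.0378), or -0.51 relative to all tested genes. The call held only when HPRT1 integrated replicate 1 was the library left out (adjusted p = 0.0401). It was lost without HPRT1 episome replicate 1 (0.100) or 2 (0.101), HPRT1R episome replicate 1 (0.0539) or 2 (0.0590), HPRT1 integrated replicate 2 (0.167), or HPRT1R integrated replicate 1 (0.179) or 2 (0.125), with differences between -0.53 and -0.66. It was also lost with heights scaled by the reads on the strand (0.0763) or by the median (0.0916).

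GAR1 (chrVIII 282681 to 283298, reverse strand), the other tall H/ACA gene, had 317, 537, 604 and 607 RPM in SC-Leu libraries, against 703, 1098, 812 and 674 RPM in YPD libraries. These values did not overlap either, and the log2 difference of -0.69 (SE 0.21) had a limma adjusted p of 0.0929. NOP14 (chrIV 188154 to 190586, reverse strand), a small-subunit processome protein, had 24.0, 75.2, 27.7 and 53.4 RPM in SC-Leu libraries, against 77.8, 95.6, 121 and 149 RPM in YPD libraries. Its groups met closely without overlapping. The log2 difference was -1.42, the largest of the 12 in size (SE 0.47, limma adjusted p = 0.114).

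DRS1 (chrXII 131729 to 133987, forward strand), a helicase of the large-subunit pathway, had 60.9, 60.1, 11.8 and 58.5 RPM in SC-Leu libraries, against 82.6, 96.1, 114 and 76.2 RPM in YPD libraries. All SC-Leu values were lower, and HPRT1R episome replicate 1 lay far under the other 3. The log2 difference was -1.19 (SE 0.51, limma adjusted p = 0.230). It was -0.61 without HPRT1R episome replicate 1 (adjusted p = 0.545) and -1.77, past the threshold, without HPRT1R episome replicate 2 (0.0475). NOP16 (chrV 156803 to 157498, forward strand), a large-subunit factor, had 121, 132, 56.4 and 83.9 RPM in SC-Leu libraries, against 144, 193, 196 and 291 RPM in YPD libraries. The groups did not overlap, and the log2 difference was -1.10 (SE 0.32, limma adjusted p = 0.0820). With only peaks of at least 4-fold enrichment, where fewer genes were tested, the same difference passed at an adjusted p of 0.0472.

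Non-overlap in the lower direction was thus seen in 6 of the 12 tested members, namely NOP1, GAR1, NHP2, NOP14, DRS1 and NOP16, where 7.31% of all tested genes showed it. None of the 12 showed it in the higher direction, as 3.87% of all tested genes did. These are counts over the tested members alone, and the 38 others could not be tested.

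The remaining members overlapped between media. NOP2 (chrXIV 510540 to 512396, forward strand), a methyltransferase of large-subunit ribosomal RNA, had 154, 162, 126 and 130 RPM in SC-Leu libraries, against 115, 182, 117 and 242 RPM in YPD libraries. The YPD values lay on both sides of the SC-Leu ones, with a log2 difference of -0.14 (SE 0.33, limma adjusted p = 0.893). NOP13 (chrXIV 307401 to 308612, reverse strand), a nucleolar RNA-binding protein, had 53.7, 51.1, 81.8 and 110 RPM in SC-Leu libraries, against 77.8, 74.4, 120 and 134 RPM in YPD libraries, and its log2 difference was -0.48 (SE 0.36, adjusted p = 0.534). All 4 values of HPRT1R strains lay above the highest HPRT1 value, 77.8 RPM. This locus difference had a limma adjusted p of 0.856, and how many of all tested genes separated in this way was not counted.

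EBP2 (chrXI 125759 to 127042, forward strand), a large-subunit assembly factor, was the lowest member called throughout, with 38.2, 15.5, 21.7 and 19.7 RPM in SC-Leu libraries, against 20.3, 21.1, 41.1 and 28.5 RPM in YPD libraries. Its heights ran from 15.5 to 41.1 RPM, where the lowest peaks called on forward strands had 8.48 to 9.65 RPM (log2 difference -0.25, SE 0.46, limma adjusted p = 0.864). DBP3 (chrVII 360288 to 361859, reverse strand), a DEAD-box helicase, had 36.7, 62.3, 29.8 and 36.3 RPM in SC-Leu libraries, against 39.6, 110, 127 and 65.9 RPM in YPD libraries (log2 difference -0.97, SE 0.48, limma adjusted p = 0.299). Its lowest YPD value lay among the SC-Leu values.

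NOC2 (chrXV 727512 to 729644, forward strand), which escorts large-subunit precursors through the nucleoplasm, was the only tested member with a positive difference. It had 114, 94.7, 125 and 35.9 RPM in SC-Leu libraries, against 40.0, 26.9, 101 and 42.2 RPM in YPD libraries. High and low values occurred in both media, so that the log2 difference of 0.85 (SE 0.50) had a limma adjusted p of 0.403. NOP4, an RNA-binding factor of the large subunit, had 22.9 to 90.8 RPM in SC-Leu and 60.5 to 170 RPM in YPD (log2 difference -0.77, SE 0.45, limma adjusted p = 0.387).

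**Figure D3:**
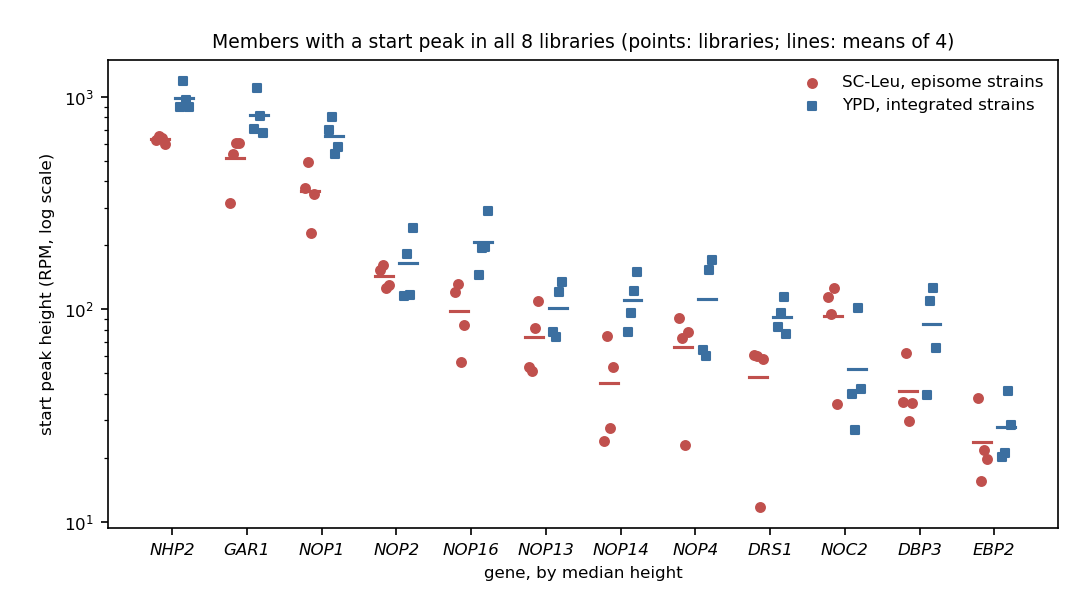
Start peak height (RPM, log axis) of the 12 members with a peak in all 8 libraries, ordered by median height, with SC-Leu libraries as red circles left of YPD libraries as blue squares and lines at the means of 4. NHP2, GAR1 and NOP1 have the highest means in both media, and the SC-Leu points of each all lie under its own YPD points.

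**Figure D4:**
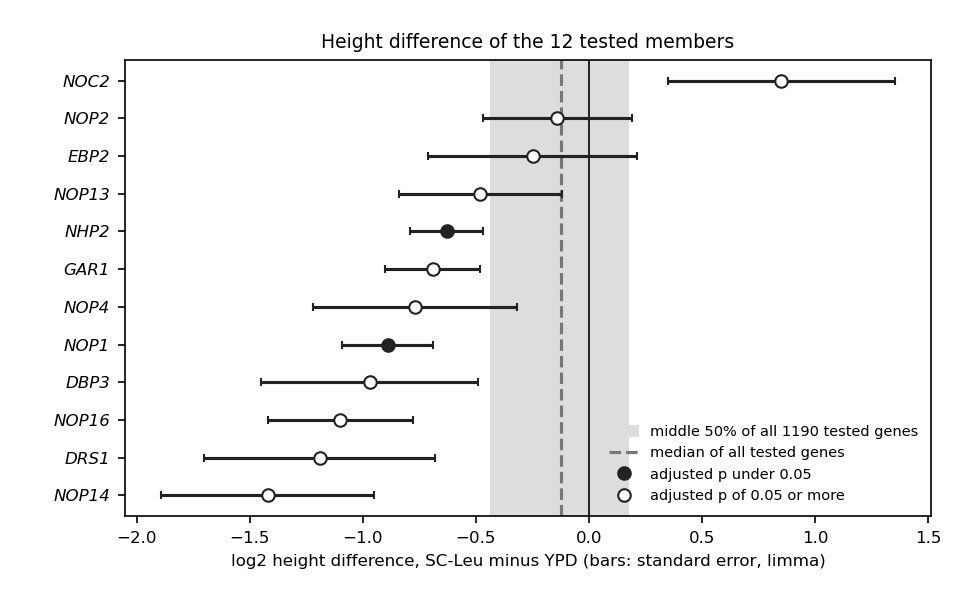
Log2 height difference, SC-Leu minus YPD, of the 12 tested members with standard errors from limma, filled where the adjusted p was under 0.05, beside the middle 50% (-0.43 to 0.17, grey) and the median (-0.13, dashed) of all 1190 tested genes. NOP1 and NHP2 are filled, and NOC2 alone lies right of 0.

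Among the 107 other ribosome biogenesis genes, 19 were tested, and none was called in either direction at an adjusted p under 0.05 in limma. Of these 19, 15 had a negative difference, with a median of -0.43 on the log2 scale and a range of -1.39 to 0.39. NMD3, the export adaptor of the large subunit, had -1.39 (SE 0.44, adjusted p = 0.101), and DIM1, a methyltransferase of small-subunit ribosomal RNA, had 0.39 (SE 0.60, adjusted p = 0.814). RPA135 and RPA12, subunits of RNA polymerase I, had -0.43 and -0.05, and neither was called. At an unadjusted p under 0.05, 2 of the 19 other ribosome biogenesis genes were lower and 0 higher, where 12.2% of all tested genes were lower, and none of the RNA polymerase I genes was either. The 41 tested cytosolic ribosomal protein genes had a median of -0.23 with 2 called lower in limma (13 lower and 0 higher at an unadjusted p under 0.05). The 29 tested mitochondrial ones had a median of -0.45 with none called in limma (4 lower and 0 higher at an unadjusted p under 0.05). A negative difference was also seen in 34 of the 41 cytosolic (82.9%) and 24 of the 29 mitochondrial ones (82.8%), where 59.7% of all tested genes had one. A difference between these lists and the 50 genes was not tested.

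The design also asked whether the sequence of the synthetic locus mattered for native genes at matched medium. No tested member differed between HPRT1R and HPRT1 strains in limma, as 0% of all 1190 genes did, and the lowest adjusted p among members was 0.856. At an unadjusted p under 0.05, 2 of the 12 members and 55 of the 1190 genes (4.62%) were counted. These members were NOP1, which had 229, 350, 540 and 581 RPM in HPRT1R libraries, against 372, 495, 698 and 805 RPM in HPRT1 libraries (log2 difference -0.51, SE 0.20), and NOP13 (0.80, SE 0.36). Both orders list the episome libraries before the integrated ones. The medium by locus interaction was called for no member and 0% of genes in limma, with 2 members, NOP4 and NOP16, and 104 genes (8.74%) at an unadjusted p under 0.05. NOP4 had a medium difference of -1.93 in HPRT1R strains and 0.39 in HPRT1 strains, and its interaction had an adjusted p of 0.539.

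The precision of the heights set what could be seen. The SD of log2 height between replicates of a group had a median of 0.47 over the 12 members (0.15 for NHP2 to 0.85 for DRS1) and of 0.45 over all tested genes. Peaks 200 bp wide, the minimum width, were 79 of the 201 member peaks (39.3%), against 32.0% of all 19049 start peaks. Such a peak holds reads from nearly 1 position. The study's methods describe no molecular identifiers and duplicates were kept, so a few amplified molecules and many molecules cannot be told apart there.

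Leaders, the distance from the 5′ end of the start peak to the start codon, were short and about the same length as in other genes. The 12 members called throughout had a median leader of 55.0 bp, and all 1190 such genes had 55.0 bp, with 50% of those genes between 39.0 and 76.5 bp. Over the 36 members with any peak the median was 46.2 bp. NOP1 had the longest leader of the 12, at a median of 146 bp and 144 to 152 bp over the 8 libraries. GAR1 followed at 82.0 bp (58 to 84 bp). At the other end EBP2 had 24.0 bp, with 5′ ends from 36 bp before the start codon to 5 bp inside the coding sequence, and NOC2 had 31.0 bp (30 to 41 bp). NOP13 was among the most closely placed, at 37 to 39 bp in every library. No member had leaders that did not overlap between media, a pattern seen as longer in SC-Leu in 0.756% and as shorter in 1.51% of all genes called throughout.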

How the data were processed

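RNA of 8 yeast cultures was analysed by CAGE-seq, and the peak lists deposited by the authors were used. According to the study's methods and the submitters' processing notes, 5′ reads were aligned with Bowtie2 2.2.9 to sacCer3 plus the synthetic sequence, and peaks were called with MACS2 2.1.0 per library and strand, without a control and with duplicates kept. The deposited fold enrichment is a ratio of summit pileup to local background, and the deposited −log10 p and −log10 q values come from a Poisson test. The 16 lists from the reference with the locus as a separate sequence were used, and 16 lists with it inside chromosome XI were not. Pileup and depth were solved from fold and −log10 p, assuming a 200 bp extension and a genome of 12000000 bp. For the 22607 peaks of fewer than 2000 reads, every solved pileup was within 0.05 of an integer. Every start peak of NOP1, GAR1 and NHP2 lay outside that check, with at least 2025, 2551 and 3908 reads. Height is the solved pileup divided by the library's aligned reads in units of 1000000 (RPM). R64, used for genes and sequence, is the RefSeq equivalent of sacCer3.

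The start peak of a gene was the tallest in its window of 300 bp upstream to 50 bp downstream of the start codon. Log2 heights of 1190 genes were fitted in limma 3.58.1 (R 4.3.3) with 4 group means, and other steps used Python 3.11.15. The fit was also run on simulated heights with planted changes. These were larger than the changes of NOP1 and NHP2, so that run does not bear on changes of their size. Members and gene lists were chosen with earlier results of these data known. Of 168 listed symbols, 166 matched by symbol and 2 by synonym. The 2 ribosomal protein lists were taken by symbol pattern after the data were seen. Values per library were given for the 3 tallest and 3 lowest members called in all 8 libraries, the tallest of each class, those past the threshold, the 3 largest and 3 smallest differences and the 2 longest and 2 shortest leaders, with others as ranges. Alternatives covered window, thresholds, scaling, filter, pseudocount, leader definition, design and each library left out.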

Additional observations from a re-analysis of the deposited data

Results flagged for a closer look

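A height far from the other 3 libraries of its medium was found in 2 of 26 sets of 4 values examined (24 sets of heights and 2 of the share called), where chance gives about 1 in 20. Both were in HPRT1R episome replicate 1. DRS1 had 11.8 RPM there, against 60.9, 60.1 and 58.5 RPM in the other SC-Leu libraries, and NOP4 had 22.9 RPM there, against 90.8, 73.6 and 78.1 RPM. Without this library the log2 difference of NOP4 was -0.33 in place of -0.77. The same library gave NOC2 its highest value, 125 RPM, and called 26 of the 50 members, the most among SC-Leu libraries. What set these 2 heights apart was not tested.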

How the results depend on the processing

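The counts of members detected depended most on the peak threshold. With peaks of at least 4-fold enrichment the mean share called was 30.5%, with 7 members in all 8 libraries, 22 in none and a median leader of 54 bp, and with −log10 q of at least 20 the share was 41.2%. The number of members lower in SC-Leu was 3 of the 7 tested with peaks of at least 4-fold enrichment, where NOP16 passed. It was 1 with heights scaled by the reads on the strand, and 0 with median scaling, without the filter or on the authors' fold, which is capped near 50. The median difference was -0.44 without the filter and -0.36 on the authors' fold. Leaders measured from the summit less 100 bp had a median of 39.2 bp. Leaving out each library gave 0 to 2 members lower in SC-Leu, shares of 49.1% to 51.7%, median differences of -0.86 to -0.57 and median leaders of 42.2 to 53.8 bp. In those fits NOP2 lay between -0.40 and 0.12, above 0 without HPRT1 integrated replicate 2 (0.03) or HPRT1R integrated replicate 2 (0.12), and EBP2 between -0.57 and 0.08, above 0 without HPRT1 episome replicate 2 (0.08). No alternative gave a member higher in SC-Leu, a locus difference or an interaction. Over all genes, the 22 higher and 27 lower became 26 and 31 of 834 tested genes with peaks of at least 4-fold enrichment. They became 28 and 23 with heights scaled by the reads on the strand and 29 and 9 with median scaling. The counts were 10 and 11 without the filter and 0 and 0 on the authors' fold, and 12 to 23 and 5 to 39 with a library left out. Those fits had fewer samples, and other causes were not tested. Replicate numbers did not pair the libraries (correlations of -0.058 to 0.012), and with the replicate block 2 members were lower, with 24 higher and 26 lower genes in all. Peaks under 8.48 RPM on forward strands and 13.8 RPM on reverse strands were called in no library.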

Other observations

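Some members had peaks inside their coding sequence, more than 50 bp past the start codon. On the sense strand this was seen in 16 of the 50 genes in at least 1 library (32%), against 24.8% of all genes, and in none of the 50 in all 8 libraries. CBF5 had such a peak in 4 libraries, at a median of 928 bp past the start codon, and NOP58, which had no start peak, in 3 libraries at a median of 1173 bp. UTP4, SPB1 and BRX1 also had no start peak but a sense peak inside the gene, in 2, 1 and 1 libraries. Antisense peaks inside the gene were found for 5 members (10%), against 14.3% of all genes, again in none of them in all libraries. These genes were named after their values were seen.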
